A study of Homo sapiens with 2 samples.

Results

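The antioxidant, glutathione and thioredoxin genes were followed in KASUMI-1, an established human acute myeloid leukaemia line that carries the RUNX1-RUNX1T1 fusion. All 39 genes of a named list were found by symbol among the 50868 genes of the deposited table, each with a single identifier. They fall into 5 genes around the transcription factor NRF2, 17 of the glutathione system, 14 of the thioredoxin and peroxiredoxin system, and 3 dismutase and catalase genes. RNA was sequenced from cells that received a USP6 lentivirus, named for a ubiquitin-specific protease, and from cells that received a pccl lentivirus, which serve as the control here. Both groups were the same cell line, both carried a lentivirus, and each held 1 library. No difference between single libraries can be checked against replicates, so none was tested. Whether the promoter or dose of virus matched is not stated in the labels. Levels are in FPKM, which divides a fragment count by the length of the gene and the depth of its library, and the 95% intervals come from the counts and cover counting error only.

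Cells detoxify peroxides through linked thiol systems. Glutathione peroxidases and glutaredoxins draw on glutathione, which is made by glutamate-cysteine ligase and glutathione synthetase and kept reduced by glutathione reductase, while peroxiredoxins draw on thioredoxin, which thioredoxin reductase keeps reduced with NADPH. Superoxide dismutases supply the hydrogen peroxide that these enzymes and catalase remove. Many of the genes are targets of NRF2, encoded by NFE2L2, a factor that KEAP1 marks for degradation by a CUL3 ubiquitin ligase until oxidants or electrophiles modify KEAP1. Myeloid blasts are exposed to oxidants from their own peroxidase and oxidase enzymes.

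The libraries held 12518795 counts (USP6) and 12306442 counts (pccl), of which the mitochondrial genome took 45.6% and 49.9%. The annotated USP6 gene had 70 counts in the USP6 library, against 8 counts in the pccl library, and reads of the viral construct cannot be told apart in these counts. All 8 KASUMI-1 identity genes checked, among them KIT, CD34, MPO and RUNX1T1, reached 1 FPKM in at least 1 library, and none of 10 erythroid markers did. These identity genes differed between the libraries, with ratios of 0.332 for CD34, 0.403 for KIT, 4.44 for MPO and 5.29 for ANPEP. Summed FPKM of the T and natural killer cell markers was 47.8 in the USP6 library, against 38.998 in the pccl library, with 4 of 8 markers at 1 FPKM or more. Within that list CD2 had 81 counts, against 4 in the pccl library, and CD3E 372 counts, against 75. Of the 4 markers at 1 FPKM or more, 3 were higher and 1 lower, CD3D, with 436 counts, against 527. CD8A, under that level, had 4 counts, against 18 in the pccl library. For B cell markers summed FPKM was 13.9 in the USP6 library, against 4.06 in the pccl library (3 of 5, with MS4A1 at 1 and 0 counts). For monocyte and neutrophil markers it was 6.82, against 4.95 in the pccl library (3 of 7, with FCGR3B at 0 in both), and there ITGAM had 285 counts, against 10, and ELANE 19 counts, against 44. For stromal and epithelial markers it was 9.89, against 17.4 in the pccl library (1 of 7, EPCAM, with COL1A2 and KRT18 at 0 in both). Most of that sum was EPCAM, with 8.77 FPKM, against 17.3 in the pccl library. VIM and PECAM1 went the other way, with 115 counts, against 8, and 21 counts, against 1. The part of all these markers in the results below was not tested. In RNA from whole cultures, fewer cells of a kind and less RNA per cell cannot be told apart.

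More of these genes were lower than higher in the USP6 library. Of the 39, 36 had at least 50 counts over both libraries, and among these 25 had a ratio of USP6 to pccl FPKM below 1 and 11 above. That is 69.4% below, against 48.8% of the 11397 genes of the table with as many counts. Of 59 such genes in the further pathway lists given below, 62.7% lay below 1. By list this share ran from 28.6% (selenocysteine machinery) to 78.6% (other thioredoxin-fold and repair genes). The median log2 ratio of the members was -0.53, against 0.03 over the 11397 genes. At a limit of 2-fold, 8 members (22.2%) were lower, which is near the background of 20.4%, and 3 (8.33%) were higher, below the background of 20.9%. The counting interval excluded a ratio of 1 for 23 lower and 10 higher members, and held it for GLRX2, MSRA and SOD2. The share of such intervals over all genes was not counted, so these numbers do not set the members apart. Of all genes with as many counts, 41.3% lay at least 2-fold from 1 in either direction.

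The difference was also taken as log2((USP6 + 1)/(pccl + 1)) of FPKM, which shrinks the difference of low genes, and was read where the higher library reached 1 FPKM. On that scale 31 members entered, and 3 of them, PRDX3, PRDX4 and GLRX3, were lower by at least 1. That compares with 11.4% of 10153 genes. None was higher by at least 1, with a background of 13.7%, although KEAP1 at 0.999 lay just under the limit. NFE2L2, MGST1 and TXNRD1 reached 1 FPKM only in the pccl library and so had to be lower. The median of the 31 was -0.50, against 0.06 over all genes.

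**Figure D1:**
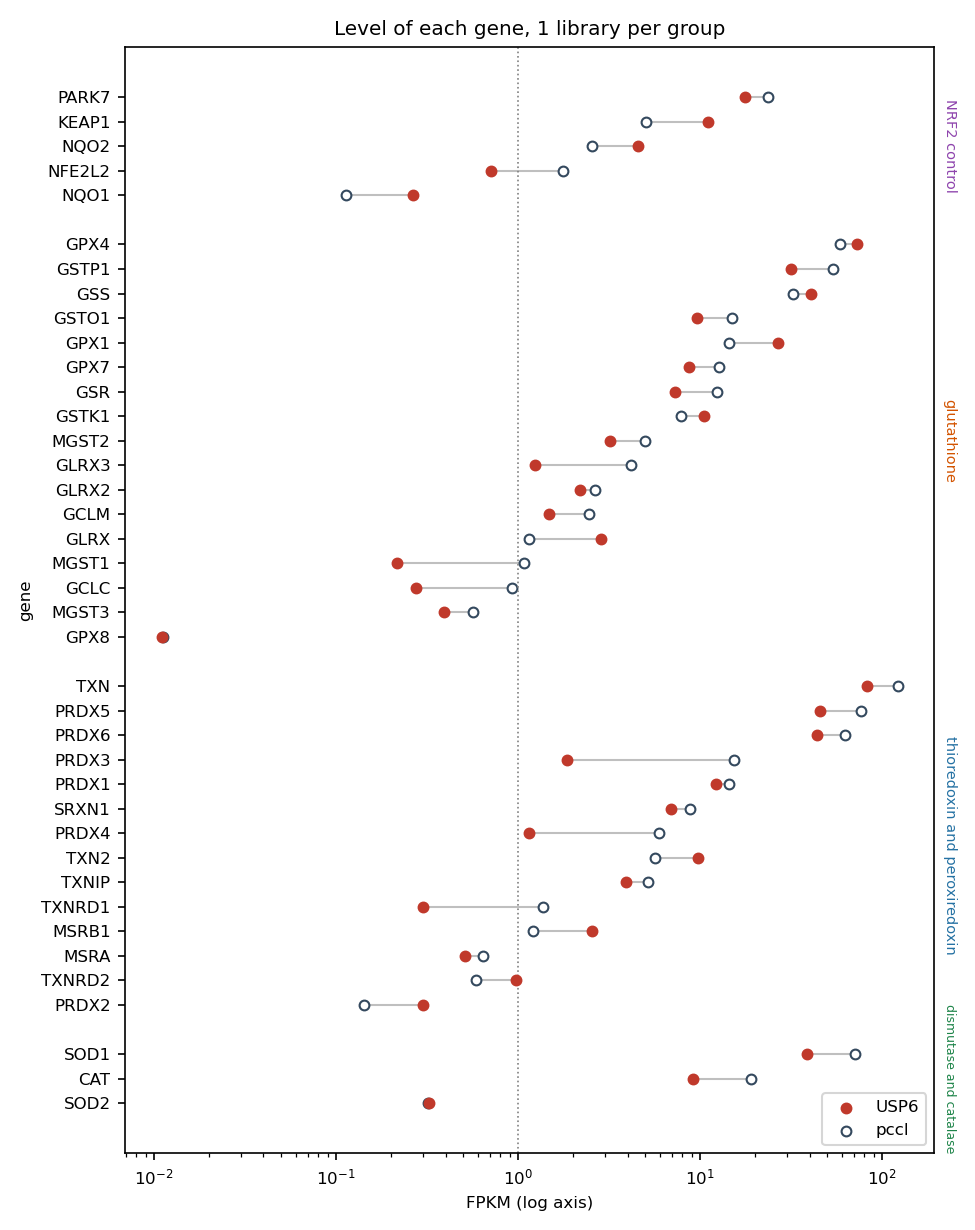
FPKM of each of the 39 genes in the USP6 library (filled) and the pccl library (open) on a log axis, grouped by role and ordered within each role by the pccl level; the dotted line marks 1 FPKM. TXN has the highest level in both libraries, and the widest gaps are those of PRDX3, PRDX4, MGST1 and TXNRD1, all lower in the USP6 library.

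Levels spanned the whole range from near absence to high expression. TXN, which encodes cytosolic thioredoxin, had the highest FPKM of the list in both libraries, 82.8 in the USP6 library and 121.8 in the pccl library. GPX4 was next in the USP6 library, with 72.5 FPKM, whereas PRDX5 was next in the pccl library, with 76.1 FPKM. At the low end GPX8, a peroxidase of the endoplasmic reticulum, had 1 count in each library, and NQO1 and PRDX2 had under 50 counts in all. FPKM compares genes only as far as the length behind it holds. The gene length implied by the deposited values was 0.326 to 4.94 times the longest annotated transcript, with a median of 2.32 over the members, so the order of genes depends on the length used. With the length of the longest transcript in its place, GPX4 came first in both libraries and TXN after it.

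The regulators NFE2L2 and KEAP1 differed in opposite directions. NFE2L2 (ENSG00000116044, chromosome 2 from 177227595 to 177392697) had 0.713 FPKM (106 counts) in the USP6 library, against 1.76 FPKM (257 counts) in the pccl library, a ratio of 0.405 (0.320 to 0.510). KEAP1 (ENSG00000079999, chromosome 19 from 10486120 to 10503741), the adaptor that holds NRF2 low, had 11.1 FPKM (1169 counts) in the USP6 library and 5.03 FPKM (523 counts) in the pccl library, a ratio of 2.20 (1.98 to 2.44). The intervals lie on opposite sides of 1. Within a library, where the total plays no part, the FPKM ratio of KEAP1 to NFE2L2 was 15.5 in the USP6 library and 2.86 in the pccl library, a 5.41-fold difference (4.20 to 7.02). Once the GC trend given below was taken out, that difference was 2.69-fold. NFE2L2 overlaps AGPS, which lies on the opposite strand and had 486 counts in the USP6 library and 1068 in the pccl library, and without stated strandedness reads of the pair cannot be told apart.

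NQO1 and NQO2 encode quinone reductases. NQO1, the best-known NRF2 target, had 19 counts in the USP6 library and 8 in the pccl library, with a counting interval of the ratio from 0.976 to 6.16. NQO2, a relative that uses a different hydride donor, had 4.57 FPKM (717 counts) in the USP6 library and 2.55 FPKM (393 counts) in the pccl library, a ratio of 1.79 (1.58 to 2.03). PARK7, which encodes the oxidation-sensing protein DJ-1, had 17.6 FPKM in the USP6 library, against 23.5 in the pccl library, a ratio of 0.749 (0.692 to 0.811). Of this group NQO2 and KEAP1 were higher and NFE2L2 and PARK7 lower, and NQO1 is not placed by its counts.

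NRF2 binds the antioxidant response element, and members with its core letters close to their start are shown to place them beside the ratios above. RefSeq promoter windows (GRCh38.p14) run from 250 bases before to 50 after each listed start, and 30 of the 39 members matched by symbol. MGST2, PRDX1, GSS, SOD1, PRDX6, GSR, MSRA, TXN2 and GLRX3 were not matched. The core TGACNNNGC was searched on both strands. It was found in 7 of the 30 matched members (23.3%), against 16.1% of the 27305 genes of the promoter table. Counted by window, it was in 8 of the 46 windows of these members, against 13.3% of all 35116 windows. Whether the members differ from other genes in this was not tested. In GSTP1 the core overlaps the AP-1 motif TGACTCA. Each site is printed with 8 bases on either side in the direction of the gene, and capitals mark the core.
KEAP1: ccggctctGCTTAGTCAtggtgacc
GCLM: cgatttctGCTTAGTCAttgtcttc
TXNRD1: ggatttctGCTTTGTCAttctgact
GSTP1: cggcgccgTGACTCAGCactggggc
GSTO1: cggagggaTGACTGAGCatttataa
MGST1: ggacatcgTGACAAAGCaaattgtc
PARK7: gccggacgTGACGCAGCgtgaggcc
The capitals of KEAP1 and GCLM are the same letters, at positions -31 and -34 from the RefSeq start, yet KEAP1 was higher and GCLM lower in the USP6 library. The other 5 genes with the core, TXNRD1, GSTP1, GSTO1, MGST1 and PARK7, were all lower as deposited, as were 69.4% of all members with at least 50 counts. After the GC centring given below, KEAP1 lay at 0.41 and GCLM at -0.22 on the log2 scale. PARK7 then lay at -0.10, GSTO1 at -0.40, GSTP1 at -1.62, TXNRD1 at -1.87 and MGST1 at -1.89. KEAP1, GSTO1 and TXNRD1 held further matches. A match is a description of these letters and not a bound site.

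The promoters of the pair with identical core letters are given whole, since these genes differed in opposite directions. They lie at chr19:10502722-10503021 (minus strand) for KEAP1 and chr1:93909381-93909680 (minus strand) for GCLM.
KEAP1: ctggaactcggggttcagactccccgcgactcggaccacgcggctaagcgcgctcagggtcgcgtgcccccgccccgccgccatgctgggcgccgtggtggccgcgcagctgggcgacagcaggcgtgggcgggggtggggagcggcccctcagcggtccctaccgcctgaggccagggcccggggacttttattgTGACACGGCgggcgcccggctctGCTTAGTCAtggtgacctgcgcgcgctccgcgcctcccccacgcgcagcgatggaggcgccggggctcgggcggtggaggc
GCLM: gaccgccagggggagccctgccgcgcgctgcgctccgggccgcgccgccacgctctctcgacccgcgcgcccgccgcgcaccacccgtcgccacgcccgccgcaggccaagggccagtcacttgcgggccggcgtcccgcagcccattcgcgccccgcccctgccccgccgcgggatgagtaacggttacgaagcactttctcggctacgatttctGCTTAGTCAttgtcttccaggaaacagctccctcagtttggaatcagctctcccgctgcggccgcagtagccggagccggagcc

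Both subunits of glutamate-cysteine ligase, the first and rate-limiting step of glutathione synthesis, were lower. The catalytic subunit GCLC (ENSG00000001084, chromosome 6 from 53497341 to 53616970) had 48 counts (0.274 FPKM) in the USP6 library and 159 counts (0.924 FPKM) in the pccl library, a ratio of 0.297 (0.210 to 0.412). Its modifier subunit GCLM (ENSG00000023909, chromosome 1 from 93885205 to 93909456) had 152 counts (1.48 FPKM), against 249 counts (2.47 FPKM) in the pccl library, a ratio of 0.6001 (0.487 to 0.737). GSS, the synthetase of the next step, differed in the opposite direction, with 40.5 FPKM in the USP6 library and 32.6 in the pccl library, a ratio of 1.24 (1.14 to 1.36). The reductase gene GSR, which regenerates glutathione, had 7.28 and 12.4 FPKM in the USP6 and pccl libraries, a ratio of 0.585 (0.513 to 0.667). So the ligase and the reductase were lower and the synthetase slightly higher as deposited. After the centring on GC content given below, GSS lay at 0.05 on the log2 scale and GCLM at -0.22. GCLC was then at -1.40 and GSR at -0.63.

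The glutathione peroxidases split by kind. GPX1, the abundant cytosolic selenoenzyme, had 26.8 FPKM in the USP6 library, against 14.3 in the pccl library, a ratio of 1.87 (1.70 to 2.05). GPX4, which reduces lipid hydroperoxides and guards against ferroptosis, had 5018 counts (72.5 FPKM) in the USP6 library and 4002 counts (58.9 FPKM) in the pccl library, a ratio of 1.23 (1.18 to 1.29). GPX7, a peroxidase of the endoplasmic reticulum without selenocysteine, had 8.71 FPKM in the USP6 library and 12.7 in the pccl library, a ratio of 0.686 (0.577 to 0.815). The selenoenzymes were thus higher and GPX7 lower as deposited. After the centring on GC content given below, GPX4 lay at -0.55 and GPX1 at -0.04 on the log2 scale. Centred with the pseudocount of 1 FPKM, GPX4 lay at -0.35 and GPX1 at 0.13, so only GPX4 turned on both scales. The pseudogene GPX1P1 held 14 counts in the USP6 library and 53 in the pccl library, and reads may be split between it and GPX1.

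Among the transferases that join glutathione to other molecules, the most abundant was lower. GSTP1 (ENSG00000084207, chromosome 11 from 67583595 to 67586660) had 31.7 FPKM (1847 counts) in the USP6 library, against 53.97 FPKM (3095 counts) in the pccl library, a ratio of 0.587 (0.553 to 0.622). GSTO1, of the omega class, had 9.58 and 15.0 FPKM in the USP6 and pccl libraries, a ratio of 0.637 (0.554 to 0.732). GSTK1, of the kappa class found in mitochondria and peroxisomes, was higher, with 10.5 FPKM in the USP6 library and 7.86 in the pccl library, a ratio of 1.33 (1.22 to 1.46).

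All 3 microsomal transferases were lower. MGST1 had 29 counts in the USP6 library and 141 in the pccl library, a ratio of 0.202 (0.131 to 0.303). MGST2 had 172 counts, against 263 in the pccl library (ratio 0.643, 0.527 to 0.782), and MGST3 56 counts, against 80 (ratio 0.688, 0.480 to 0.980). MGST2 and MGST3 belong to the enzyme family that includes leukotriene C4 synthase. The interval of MGST3 reached almost to 1. MGST2 overlaps H3P16 (513 and 620 counts in the USP6 and pccl libraries) and MAML3 (167 and 154), both on the opposite strand. Without stated strandedness the count of MGST2 is uncertain.

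The glutaredoxins, which reduce proteins at the expense of glutathione, showed a reversal of order. GLRX (ENSG00000173221, chromosome 5 from 95751319 to 95823005), the small cytosolic enzyme, had 2.87 FPKM (319 counts) in the USP6 library, against 1.15 FPKM (126 counts) in the pccl library, a ratio of 2.49 (2.02 to 3.08), the highest among members with at least 50 counts. GLRX3 (ENSG00000108010, chromosome 10 from 130136399 to 130184521), a multidomain form that carries iron-sulphur clusters, had 1.24 FPKM (93 counts) in the USP6 library and 4.19 FPKM (309 counts) in the pccl library, a ratio of 0.296 (0.232 to 0.374). The FPKM ratio of GLRX to GLRX3 was 2.32 in the USP6 library and 0.275 in the pccl library. GLRX2, the mitochondrial form, had 50 and 60 counts in the USP6 and pccl libraries, a difference not detectable at this depth. GLRX overlaps RHOBTB3 on the opposite strand, which had 563 counts in the USP6 library and 340 in the pccl library.

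**Figure D2:**
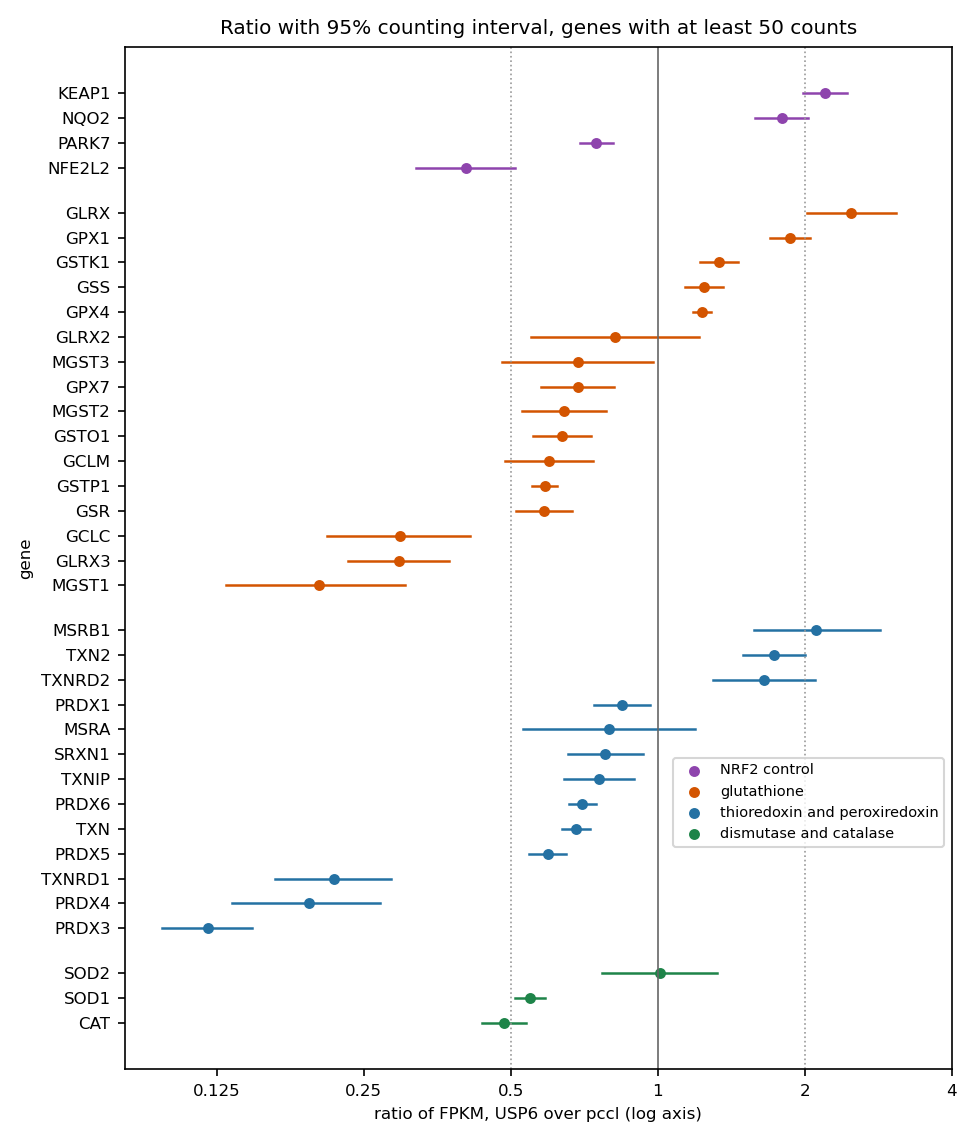
Ratio of FPKM in the USP6 library to FPKM in the pccl library for the 36 genes with at least 50 counts, on a log axis, with bars for the 95% counting interval and colours for the role; dotted lines mark 2-fold. KEAP1, GLRX and MSRB1 lie above 2, and PRDX3 has the lowest ratio, 0.120.

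In the thioredoxin system the cytosolic genes were lower and their mitochondrial partners higher as deposited. After GC centring TXN lay at -0.15, TXNRD1 at -1.87, TXN2 at 0.37 and TXNRD2 at -0.14 on the log2 scale. TXN (ENSG00000136810, chromosome 9 from 110243811 to 110256640) had 1518 counts in the USP6 library and 2194 in the pccl library, a ratio of 0.680 (0.637 to 0.726). TXN2 (ENSG00000100348, chromosome 22 from 36467036 to 36482030), the mitochondrial thioredoxin, had 9.77 FPKM (515 counts) in the USP6 library, against 5.65 FPKM (293 counts) in the pccl library, a ratio of 1.73 (1.49 to 2.001). The FPKM ratio of TXN to TXN2 was 8.48 in the USP6 library and 21.5 in the pccl library, a ratio of ratios of 0.394 (0.335 to 0.462), and of 0.698 after GC centring.

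The order of the reductases turned round between the libraries. TXNRD1 (ENSG00000198431, chromosome 12 from 104215779 to 104350305), the cytosolic selenoenzyme and an NRF2 target, had 0.299 FPKM (68 counts) in the USP6 library and 1.38 FPKM (307 counts) in the pccl library, a ratio of 0.218 (0.165 to 0.284). TXNRD2 (ENSG00000184470, chromosome 22 from 19875517 to 19941992), its mitochondrial counterpart, had 0.971 FPKM (186 counts) in the USP6 library and 0.590 FPKM (111 counts) in the pccl library, a ratio of 1.65 (1.30 to 2.10). The FPKM ratio of TXNRD1 to TXNRD2 was 0.308 in the USP6 library, against 2.33 in the pccl library, a ratio of ratios of 0.133 (0.0914 to 0.191), and of 0.3005 after GC centring. Scaled by the longest transcript in place of the deposited length, the order turned in the same way, with 1.27 for TXNRD1 and 4.71 for TXNRD2 in the USP6 library, against 5.83 for TXNRD1 and 2.86 for TXNRD2 in the pccl library. TXNRD1 contains the ribosomal pseudogene RPL18AP3 on its own strand, which had 7433 counts in the USP6 library and 5257 in the pccl library. The counts of both reductases are uncertain for reasons of overlap. The gene for the thioredoxin-binding protein TXNIP had 263 counts in the USP6 library and 341 in the pccl library, a ratio of 0.758 (0.643 to 0.893). TXNIP lay at -0.03 on the log2 scale after GC centring.

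**Figure D3:**
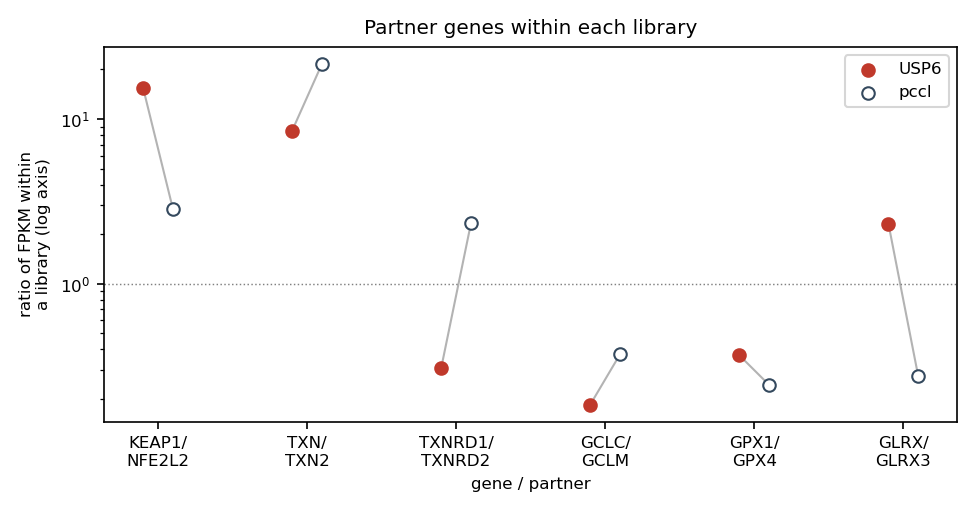
FPKM of a gene divided by FPKM of its partner within the USP6 library (filled) and the pccl library (open) for 6 pairs, on a log axis; the dotted line marks equal levels. TXNRD1/TXNRD2 and GLRX/GLRX3 lie on opposite sides of 1 in the 2 libraries. The pairs were chosen with the values known.

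The peroxiredoxins, abundant peroxidases that thioredoxin reduces, were lower wherever they could be measured. All 5 with at least 50 counts had a ratio below 1, with a median log2 ratio of -0.75, and their summed counts with PRDX2 were 3107 in the USP6 library and 5268 in the pccl library. Among all counted members 69.4% lay below 1, and among all genes with as many counts 48.8%. The largest difference of the whole list was that of PRDX3 (ENSG00000165672, chromosome 10 from 119167703 to 119178833), the mitochondrial peroxiredoxin, with 1.85 FPKM (100 counts) in the USP6 library, against 15.4 FPKM (819 counts) in the pccl library, a ratio of 0.120 (0.0965 to 0.148). PRDX3 ranked 25 of the 39 genes by FPKM in the USP6 library and 10 in the pccl library. PRDX4 (ENSG00000123131, chromosome X from 23664262 to 23686399), which works in the endoplasmic reticulum, had 41 counts in the USP6 library and 209 in the pccl library, a ratio of 0.193 (0.134 to 0.271).

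The other peroxiredoxins differed less. PRDX5, a form shared by mitochondria, peroxisomes and cytosol, had 45.3 and 76.1 FPKM in the USP6 and pccl libraries, a ratio of 0.595 (0.545 to 0.650). PRDX6, which has a single catalytic cysteine and also acts as a phospholipase, had 43.97 FPKM in the USP6 library, against 62.7 in the pccl library, a ratio of 0.701 (0.659 to 0.746). PRDX1, the main cytosolic form, had 431 counts in the USP6 library and 501 in the pccl library, a ratio of 0.846 (0.742 to 0.964). On the log2 scale after GC centring PRDX5 lay at -1.54, PRDX6 at -0.20 and PRDX1 at -0.32. PRDX2, known as an abundant protein of red blood cells, had only 15 and 7 counts in the USP6 and pccl libraries. It overlaps HOOK2 on its own strand, and its ratio is not resolved, with an interval from 0.808 to 6.11.

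Repair enzymes of the thiol systems showed small or opposite differences. SRXN1, sulfiredoxin, which rescues overoxidised peroxiredoxins, had 6.90 FPKM in the USP6 library and 8.82 in the pccl library, a ratio of 0.782 (0.655 to 0.932). MSRB1, a selenoenzyme that repairs one stereoisomer of methionine sulfoxide, had 146 counts in the USP6 library and 68 in the pccl library, a ratio of 2.11 (1.57 to 2.86). MSRA, which repairs the other stereoisomer, had 47 and 58 counts in the USP6 and pccl libraries, a ratio of 0.797 whose interval (0.530 to 1.19) holds 1.

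The dismutase and catalase genes were lower apart from SOD2. SOD1 (ENSG00000142168, chromosome 21 from 31659622 to 31668931), the cytosolic copper-zinc enzyme, had 38.7 FPKM (1213 counts) in the USP6 library, against 70.6 FPKM (2176 counts) in the pccl library, a ratio of 0.548 (0.510 to 0.588). CAT (ENSG00000121691, chromosome 11 from 34438925 to 34472062), the peroxisomal catalase, had 9.17 FPKM (558 counts) in the USP6 library and 18.9 FPKM (1133 counts) in the pccl library, a ratio of 0.484 (0.437 to 0.536). SOD2, the mitochondrial manganese enzyme, had 113 counts in the USP6 library and 110 in the pccl library, a ratio of 1.0098 (0.770 to 1.33). SOD2 overlaps ACAT2 and WTAP, both on the opposite strand and with more counts, so its count is uncertain.

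Grouped by what the encoded proteins share, selenoproteins stood mostly above 1. Of 5 selenoprotein genes, GPX1, GPX4, TXNRD2 and MSRB1 were higher and TXNRD1 lower, with a median log2 ratio of 0.72. Of 6 genes listed for mitochondrial proteins, without GSTK1 (ratio 1.33), 3 had a ratio above 1 (TXN2, TXNRD2 and SOD2) and 3 below (PRDX3, PRDX5 and GLRX2), with a median of -0.14. The intervals of SOD2 and GLRX2 hold 1. TXNRD2 and GLRX2 changed sign under the GC centring given below, where the median of these mitochondrial genes was 0.03. All 5 counted genes for proteins of the secretory pathway or microsomal membranes, PRDX4, GPX7 and the MGST genes, lay below 1, with a median of -0.64. Among them the count of MGST2 is uncertain for overlap. Beside these counts, 69.4% of all counted members and 48.8% of all genes with as many counts lay below 1. These sets are small, and whether they differ from the other members was not tested.

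Across all genes the ratio followed the GC content of the transcript, and the selenoprotein genes are GC-rich. Over transcripts ranked by GC, Spearman's rho with the log2 ratio was 0.42 over 10207 protein-coding genes, given as a description. Over the 35 counted members other than GPX1, which GENCODE lists under another type than protein-coding, it was 0.33. Points share the same libraries and their depth. Of these, 17 members lay above their median GC of 46.5%, and 8 of them had a ratio above 1, against 2 of the 18 at or below it. GC content was 64.2% in GPX1, 62.6% in TXNRD2, 62.5% in GPX4, 58.7% in MSRB1 and 44.8% in TXNRD1.

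After the log2 ratios were centred on this trend, 26 of the 36 members lay below 0 and 10 above, with a median of -0.27, against -0.01 over all genes. By at least 2-fold, 10 members were then lower and 1, GLRX, higher, with backgrounds of 17.7% and 17.2%. The selenoprotein median became -0.14, and the signs of GPX1, GPX4 and TXNRD2 turned, as did those of GLRX2 and MSRA. GPX1, at -0.04, and MSRA, at 0.02, then lay near 0. KEAP1 was at 0.41 after centring, against 1.14 before, and MSRB1 at 0.46, against 1.08. PRDX3 stayed the lowest at -2.66 and PRDX4 was at -2.48. Centring lowered GC-rich members further, so that GSTP1 was at -1.62, PRDX5 at -1.54 and SOD1 at -1.11. CAT, at -0.73, was no longer 2-fold lower. The part of GC content in these ratios was not tested.

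**Figure D4:**
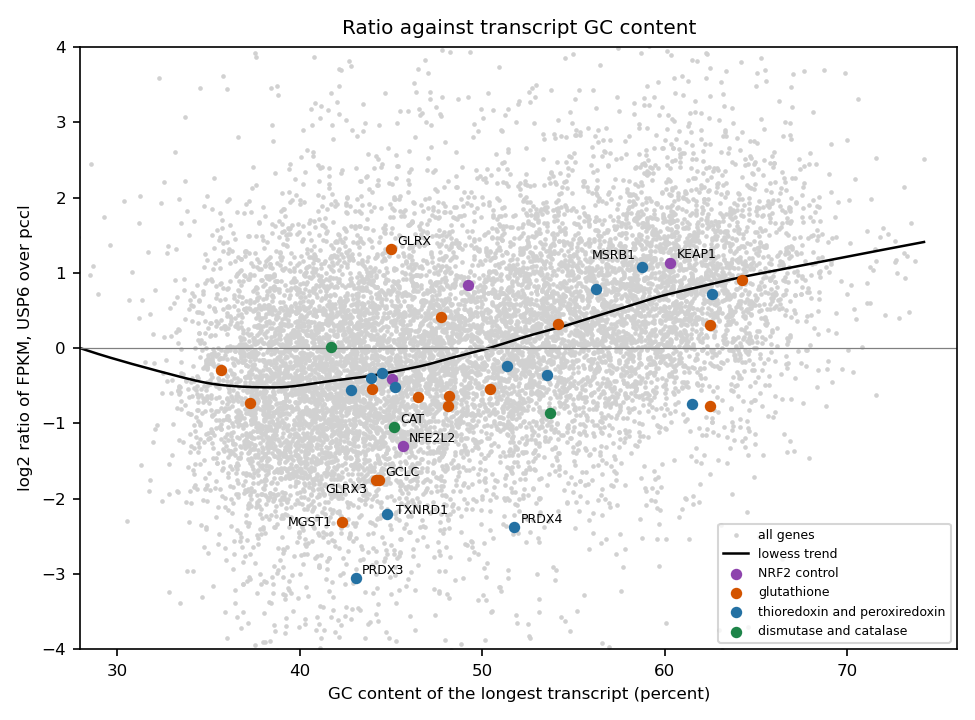
Log2 ratio of FPKM, USP6 over pccl, against GC content of the longest transcript for 11363 genes with at least 50 counts (grey) and for the members (coloured by role), with the lowess trend in black; names mark members at least 2-fold apart, and 195 genes lie beyond the axis at 4 or -4. KEAP1 and MSRB1 lie 0.41 and 0.46 above the trend, GLRX farther above it, and PRDX3, PRDX4, MGST1 and TXNRD1 well below it.

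The wider NRF2 pathway was described from lists written down with earlier results of these data known. Among 9 counted partners and regulators of NRF2, 1 was higher (11.1%) and 2 were lower (22.2%) past 2-fold, against backgrounds of 20.9% and 20.4%, and the median was -0.25. NFE2L1, the NRF2 relative that controls proteasome genes, had 135 counts in the USP6 library and 1494 in the pccl library, a ratio of 0.0888 (0.0739 to 0.106). BACH1, a repressor that competes for the same element, had 118 and 293 counts in the USP6 and pccl libraries, a ratio of 0.396 (0.317 to 0.492), and a log2 ratio of -0.81 after GC centring. The small partner MAFG had 78 counts, against 25 in the pccl library, a ratio of 3.07 (1.93 to 5.02). CUL3, the ligase scaffold bound by KEAP1, had 240 counts in the USP6 library and 402 in the pccl library, a ratio of 0.587.

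Of 11 counted other NRF2 target genes, 3 were lower (27.3%) and 1 higher (9.09%) past 2-fold, against the same backgrounds, with a median of -0.25. After GC centring 0 were higher and 4 lower past 2-fold, against 17.2% and 17.7% of all genes so centred. The centred median was -0.89, and EPHX1 lay at 0.90. ABCC1, an exporter of glutathione conjugates, had 31 counts in the USP6 library, against 775 in the pccl library, a ratio of 0.0393 (0.0265 to 0.0563). SLC7A11, which brings in cystine for glutathione synthesis, had 106 and 494 counts in the USP6 and pccl libraries, a ratio of 0.211 (0.169 to 0.261), and its partner chain SLC3A2, counted with the glutathione genes, had a ratio of 1.71. The ferritin heavy chain gene FTH1 had 10.5 FPKM in the USP6 library and 28.96 in the pccl library, a ratio of 0.363 (0.335 to 0.394). Against these, EPHX1, an epoxide hydrolase, had 296 counts in the USP6 library and 115 in the pccl library, a ratio of 2.53 (2.03 to 3.17). The haem oxygenase gene HMOX1, which BACH1 represses, had 21 counts in the USP6 library and 0 in the pccl library. With the 0 set to a floor of 3 counts its ratio was 6.88, which depends on that floor and is not a lower limit. PGD, which encodes an NADPH-producing enzyme of the pentose phosphate pathway, had a ratio of 1.07 (0.982 to 1.17), with an interval that holds 1.

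**Figure D5:**
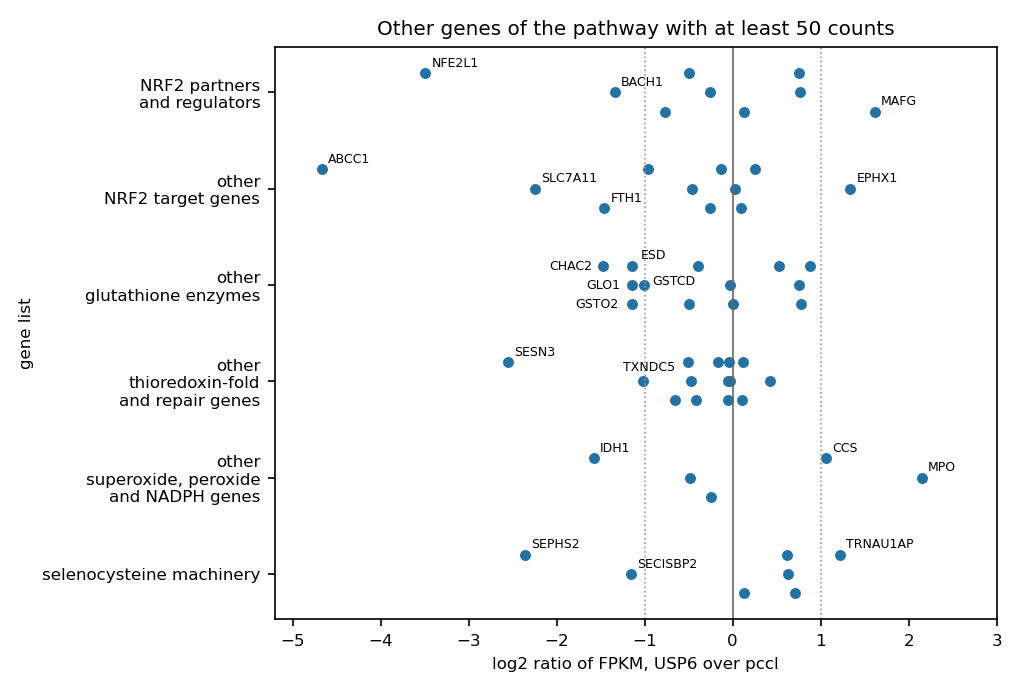
Log2 ratio of FPKM, USP6 over pccl, for other genes of the pathway with at least 50 counts, by list, spread vertically within a list for legibility; dotted lines mark 2-fold and names mark genes past it. ABCC1 and NFE2L1 lie farthest to the left and MPO farthest to the right.

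Of 13 counted further glutathione genes, 5 were lower by at least 2-fold (38.5%, against 20.4% of all genes) and 0 higher (against 20.9%), with a median of -0.39. GLO1, which uses glutathione to clear methylglyoxal, had 58.3 FPKM in the USP6 library and 129.1 in the pccl library, a ratio of 0.452 (0.432 to 0.472). ESD, which acts on a glutathione thioester, had a ratio of 0.453 (0.398 to 0.514), and CHAC2, which breaks glutathione down, 0.362 (0.272 to 0.477). GSTO2 had 51 and 111 counts in the USP6 and pccl libraries, a ratio of 0.452, and GSTCD was just past the limit at 0.498. After GC centring 0 of these 13 genes lay 2-fold lower and 1 lay 2-fold higher (GSTA4, at 1.28). Of all genes so centred, 17.7% were lower and 17.2% higher.

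Of 14 further genes with a thioredoxin fold or a repair role, 2 were 2-fold lower (14.3%, under the background of 20.4%) and 0 higher, with a median of -0.10. The 2 lower genes were SESN3, a sestrin, with a ratio of 0.171 (0.153 to 0.190), and the endoplasmic reticulum oxidoreductase gene TXNDC5, with 0.496 (0.467 to 0.525). After GC centring 3 of the 14 were 2-fold lower, against 17.7% of all genes so centred. These were SESN3, TXNDC5 and P4HB (at -1.06 on the log2 scale), and the median was -0.22. Among 5 genes of superoxide, peroxide and NADPH handling, MPO, the myeloperoxidase gene, had a ratio of 4.44, CCS, the copper chaperone that loads SOD1, 2.09 (1.63 to 2.69), and the cytosolic NADPH source IDH1 0.335 (0.261 to 0.427). After GC centring CCS lay at 0.18 on the log2 scale, no longer 2-fold higher. In the selenocysteine machinery, with 7 counted genes and a median of 0.62, SEPHS2, which makes the selenium donor, had 18 and 91 counts in the USP6 and pccl libraries, a ratio of 0.194 (0.110 to 0.325). SECISBP2, which binds the selenocysteine insertion element, had a ratio of 0.449 (0.369 to 0.545), with a log2 ratio of -0.71 after GC centring, and TRNAU1AP 2.33 (1.86 to 2.94).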

How the data were processed

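Sequencing counts of 1 USP6 and 1 pccl library were used. HISAT2 2.0.4, StringTie 1.3.3b and edgeR are listed, with no roles, per the submitters' processing notes. Build, annotation, strandedness and RNA selection are not given in the sources used here. Each count deposited by the authors is a whole number per gene. The FPKM deposited by the authors is that count scaled by a gene length and the column's total, and the implied length was equal within 0.1% for each of 16030 genes counted in both. GENCODE release 29 held 50111 of the identifiers, 94.9% of them at an identical locus. It gave gene types and GC (of the longest transcript), while coordinates are the file's.

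Counts and FPKM of identifiers that share a symbol were added up. Ratios are USP6 over pccl FPKM with exact conditional binomial (Clopper-Pearson) intervals at 95%, and ratios of ratios have conditional exact intervals. PCR copies are not independent molecules, so intervals may be too narrow. Single libraries leave 0 residual degrees of freedom, and no count model was fitted. The log2 ratio had a pseudocount of 1 FPKM and a filter of 1 FPKM in the higher library. Ratios without a pseudocount among genes with at least 50 counts, and their form centred on GC (lowess, span 0.3), were added after the values had been seen. All 39 members are named, with USP6 and, from each further list, up to 4 genes at or past 1 or -1 on the pseudocount scale. Chosen after their values were seen were MAFG, BACH1, CUL3, SLC3A2, HMOX1, PGD, GSTO2, GSTCD, GSTA4, TXNDC5, P4HB, CCS, IDH1, SECISBP2, TRNAU1AP and the markers given with values. Members and lists were chosen with earlier results of these data known. Some results are not reported here.

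Alternatives were pseudocounts of 0.1 and 5 FPKM, other filters, trimmed-mean scaling in edgeR 4.0.16, median-of-ratios size factors in DESeq2 1.42.0, nuclear depth, GC centring, a 1.5-fold limit, single identifiers and protein-coding genes. The steps were tested on simulated Poisson counts for USP6 against pccl over 50464 genes. They recovered 100% of 200 well expressed genes set to a 4-fold difference and called 0.207% of 9191 expressed genes without one. Poisson counts hold no variation between cultures. Software was Python 3.11.15 with SciPy 1.17.1, NumPy 2.4.6, statsmodels 0.14.6, pandas 2.3.3 and, for plots, matplotlib 3.10.9, beside R 4.3.3.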

Additional observations from a re-analysis of the deposited data

How the results depend on the processing

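On the log2((USP6 + 1)/(pccl + 1)) scale, 1396 genes of the table were higher and 1156 lower by at least 1, and 0 members were higher and 3 lower. A pseudocount of 0.1 FPKM gave 2295 higher and 1993 lower genes, with 3 and 7 members. With 5 FPKM there were 364 and 301 genes and 1 lower member, and a filter of 5 FPKM left 808 and 682 genes. A 1.5-fold limit gave 2808 and 2465 genes, with 6 higher and 12 lower members. GC centring gave 979 higher and 995 lower genes, with 1 and 5 members. Lower genes outnumbered higher ones with the trimmed mean (1194 higher, 1348 lower), the median of ratios (1252 and 1293) and nuclear depth (1163 and 1372), each with 0 higher and 4 lower members. Ratios without a pseudocount, chosen after the data were seen, gave 2385 and 2327 genes with 3 and 8 members, and 1955 higher and 2011 lower genes with 1 and 10 members once centred on GC. The cause of these moves was not tested beyond what the settings themselves change. The members' median was -0.50 and stayed below 0 in all settings run, from -0.60 with nuclear depth to -0.24 with a pseudocount of 5 FPKM. Nuclear depth moved the median of all genes by -0.11, and members kept their direction under it, the trimmed mean and the median of ratios, except SOD2, whose ratio is near 1. Of 36 members, 5 changed sign under GC centring of the ratios without a pseudocount. Among them GPX1 stayed above 0, at 0.13, when centred on the pseudocount scale. Medians ranged from 0.03 to 0.30 for the NRF2 group, -0.59 to -0.10 for glutathione, -0.62 to -0.20 for thioredoxin and peroxiredoxin and -1.02 to -0.73 for dismutase and catalase genes. Members under about 100 counts are limited by depth. No paired analysis was possible because each group has 1 library.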
